A study of Mus musculus with 4 samples.

Results

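Solute carriers are membrane proteins that move sugars, amino acids, ions, vitamins, nucleotides and metabolites across the plasma membrane and the membranes of organelles, and their genes carry the prefix Slc followed by a family number. Of the 14405 rows of the deposited expression matrix, 252 had such a symbol. The 246 described here had a mean of at least 1 FPKM in the wild type or in the mutant group, out of 14040 genes that met the same limit. FPKM is a level per length of transcript and per size of library. The level chose the members, so the presence of these genes in the tissue is no finding. The members belonged to 45 families.

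The tissue was dorsal root ganglion, the cluster of sensory neurons with their satellite glia, Schwann cells, vessels and connective tissue sheath beside the spinal cord, taken at 10 weeks of age from mice of a strain labelled Mixed. There were 2 samples with the genotype label wild type. There were 2 mutant samples labelled Prdm12-/Fl; AvilCreERT2/+, with 1 null and 1 floxed Prdm12 allele and 1 copy of Avil-CreERT2. Prdm12 encodes a transcriptional regulator of the pain-sensing neuron lineage. Avil-CreERT2 is a Cre recombinase that enters the nucleus under tamoxifen and is driven by Avil, a gene of sensory neurons. The other cells of the ganglion are not the target of this Cre. The null allele in the label does not depend on Cre, so it is not confined to sensory neurons. The sources used here do not give the Cre and tamoxifen status of the wild type mice, the time of tamoxifen, or whether ganglia of several mice were pooled. Each group had 2 samples in every result below. Separate animals are not stated for them, so the p-values measure only the spread among these samples, part of which may be technical.

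The families differ in what drives transport and where. Slc6 carriers take up transmitters and amino acids with sodium and chloride, Slc13 carriers take up sulfate and dicarboxylates with sodium, Slc22 carriers move organic anions and cations, and Slc25 carriers sit in the inner mitochondrial membrane. In nervous tissue several of them are known for a place at a barrier. Cells of the arachnoid and other meningeal layers, perivascular fibroblasts, perineurial cells and endothelium carry transporters that clear organic anions, transmitters and sulfate from the fluid around nerve cells and bring in nutrients. Satellite glia and Schwann cells carry transporters for GABA, glycine, glutamate and peptides, and neurons carry those that fill transmitter vesicles.

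Prdm12 itself stood at 7.58 and 10.7 FPKM in the wild types and at 1.05 and 1.495 FPKM in the mutants, so that the targeted gene was lower in both samples labelled mutant. Sensory neuron markers identified the tissue: Uchl1 lay between 1593 and 2433 FPKM and Avil between 78.4 and 164 FPKM over the 4 samples. Of 5 spinal cord glia markers 2 met the limit, with a summed level of 3.37 to 7.13 FPKM. The summed FPKM of all rows was 620018 to 686830 per sample. The depth of the libraries is unknown, because FPKM values hold no read counts. The second sample of each group held more skeletal muscle RNA than the first. The summed level of 10 skeletal muscle markers was 272 and 2185 FPKM in wild type 1 and 2 and 121 and 4285 FPKM in mutant 1 and 2. None of the 14040 genes, 0% of those tested, passed an adjusted p of 0.05 in limma, and the smallest adjusted p was 0.175. All differences below are therefore given as values, with the position of each sample, and not as calls. At an unadjusted p below 0.05 limma named 612 genes.

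By level, the members ranged from a mean over the 4 samples of 0.986 FPKM to 796 FPKM, with a median of 8.68 FPKM against 9.52 FPKM over all genes tested. In 108 members the mean was at least 10 FPKM, and in 77 it was under 5 FPKM. Those above 100 FPKM numbered 5. Slc25a4, the ADP/ATP carrier of heart and muscle type, stood at 681 and 858 FPKM in the wild types and at 717 and 929 FPKM in the mutants. The phosphate carrier Slc25a3 stood at 349 and 340 FPKM and at 351 and 352 FPKM, and the ADP/ATP carrier Slc25a5 at 319 and 300 FPKM and at 298 and 299 FPKM. Their log2 differences were 0.09, 0.03 and -0.05, smaller than their standard errors. Slc25a1, the mitochondrial citrate carrier, was at 95.9 and 101 FPKM and at 91.8 and 144 FPKM, with mutant 2 above the other samples. The fifth was Slc38a2, a neutral amino acid transporter whose values follow below.

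**Figure D1:**
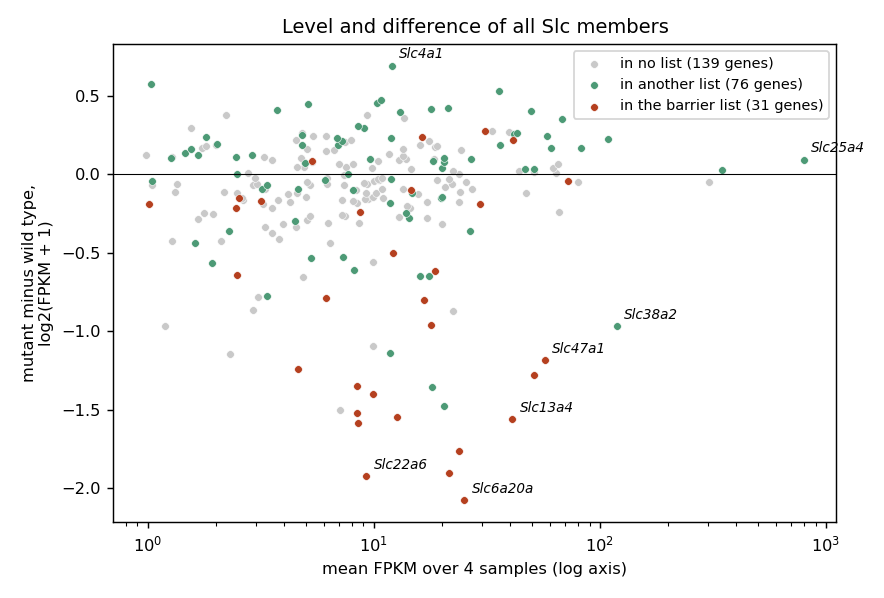
Each point is 1 of the 246 Slc genes, with its mean FPKM over 4 samples on a log axis against its mutant minus wild type difference on the log2(FPKM + 1) scale. The 31 genes of the barrier list (red) reach from 0.27 down to -2.08, and no member lies above the 0.69 of Slc4a1.

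At the threshold, the members just inside were Slc9a3, with group means of 0.923 FPKM in the wild type and 1.05 FPKM in the mutant, Slc8a3 with 1.07 and 1.02 FPKM, and Slc22a15 with 1.09 and 0.993 FPKM. The rows just outside were Slc25a43 with 0.999 and 0.688 FPKM, Slc9a5 with 0.726 and 0.972 FPKM, and Slc6a7 with 0.944 and 0.892 FPKM. Slc17a9, Slc23a1 and Slc28a3 were the other rows left out. Of the members, 6 met the limit through 1 group only, 4 of them through the wild type (Slc30a10, Slc22a15, Slc19a3 and Slc27a2) and 2 through the mutant (Slc9a3 and Slc7a10). Such a gene enters by being high in 1 group, so its difference is partly set by the rule.

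The differences between the groups lay mostly on the lower side. Both mutants were below both wild types in 75 members, 30.5% of them, where the share over all genes tested was 19.6%. Both mutants were above both wild types in 36 members, or 14.6%, where the share over all genes was 12.5%. In the other 135 members the groups overlapped. At an unadjusted limma p below 0.05, 33 members were lower (13.4%, against 3.01% of all genes) and 2 were higher (0.813%, against 1.35%). The 2 higher ones were Slc4a1 and Slc15a2. These counts changed when single samples were left out. The median log2 difference of all members then ran from -0.084 (without wild type 2) to -0.044 (without mutant 2). The log2 difference, mutant minus wild type on the log2(FPKM + 1) scale, was -1 or less in 19 members (7.72%) and in 129 of all genes tested (0.919%). It was 1 or more in 0 members and in 19 of all genes (0.135%). The median member differed by -0.06 and the median gene by -0.005 on that scale, and 136 members lay within 0.2 of 0, so the lower values belonged to a minority of the family.

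In the authors' deposited table of 150 genes, 20 had an Slc symbol and all 20 were lower in the mutants. That is 7.94% of the 252 Slc rows, where the 129 lower genes of the table are 0.896% of the matrix rows. Slc genes made up 13.3% of the table and 15.5% of its lower genes. The table's q-values for the 20 ran from 0.00742 to 0.0386. It was made from the same 4 samples and is no second measurement. Both mutants lay below both wild types in each of the 20. The second sample was lower than the first of the same group in 19 of the 20 within the wild type and in 17 of the 20 within the mutant, so these genes also differed within the groups. In bulk tissue, fewer cells of a type and less RNA per cell cannot be told apart, and this holds for every difference given here.

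**Figure D2:**
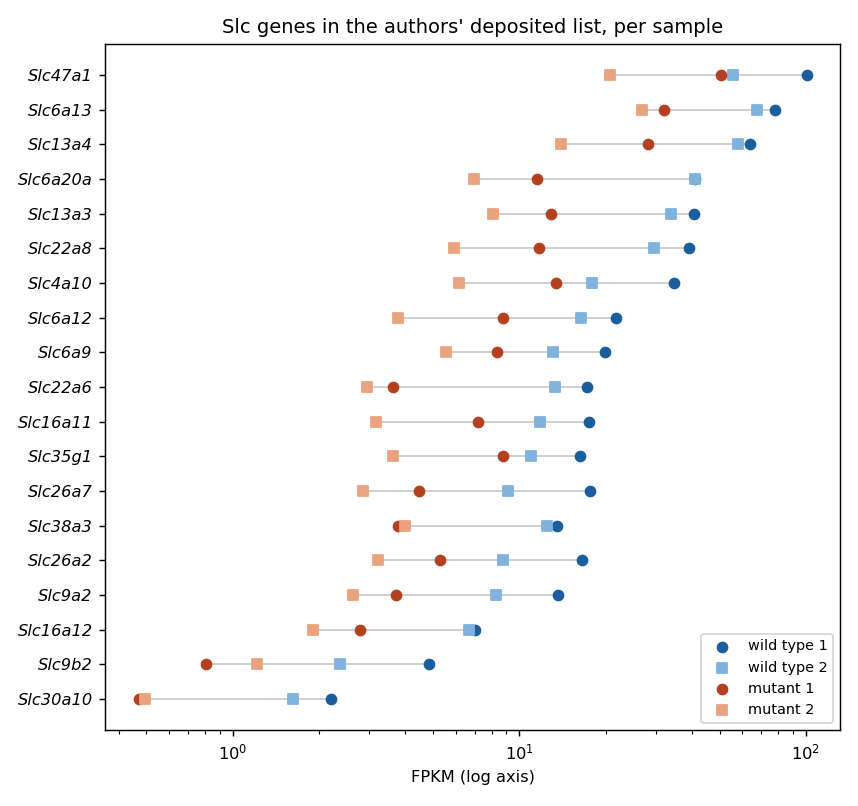
FPKM (log axis) in each of the 4 samples for 19 of the 20 Slc genes of the authors' deposited table, ordered by level. In every row the 2 mutant points lie left of the 2 wild type points, with the smallest separation in Slc47a1, where wild type 2 was at 55.7 FPKM and mutant 1 at 50.6 FPKM.

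Among the organic anion and drug transporters, 3 genes of the table stood out by level or ratio. Slc22a6 encodes OAT1, which takes up organic anions in exchange for dicarboxylates. It stood at 17.2 and 13.3 FPKM in the wild types and at 3.62 and 2.94 FPKM in the mutants, and the gap between the groups was wider than the gap within either. The means were 15.3 ± 2.75 and 3.28 ± 0.485 FPKM (SD, n = 2 each), 4.66-fold lower in the mutants. Its log2 difference of -1.92 (95% interval -2.39 to -1.46) was large against its standard error of 0.185 (limma adjusted p = 0.175). Slc22a8 encodes OAT3, an organic anion exchanger known from the choroid plexus and meninges. It stood at 39.1 and 29.6 FPKM in the wild types and at 11.7 and 5.91 FPKM in the mutants, with a log2 difference of -1.90 (standard error 0.322, limma adjusted p = 0.455). Slc47a1 encodes MATE1, a proton-coupled exporter of organic cations. It stood at 101 and 55.7 FPKM in the wild types and at 50.6 and 20.8 FPKM in the mutants, so that the samples nearly met between the groups. Its log2 difference was -1.18 with a 95% interval of -2.38 to 0.02 (limma adjusted p = 0.994), and it was the only gene of the 20 with an unadjusted p above 0.05. Single samples set its size: leaving out mutant 2 gave -0.56, leaving out wild type 1 gave -0.76, and leaving out mutant 1 gave -1.80.

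The transmitter and amino acid carriers of family Slc6 gave 5 of the 20 genes. Slc6a20a encodes a sodium-coupled transporter of proline and other imino acids. It was the member with the largest difference of the 246, at 40.9 and 41.2 FPKM in the wild types and at 11.5 and 6.94 FPKM in the mutant samples (log2 difference -2.08, standard error 0.242, limma adjusted p = 0.232). The wild types were nearly equal and the mutants were 4.45-fold lower by the means. Slc6a13 encodes GAT2, a GABA and taurine transporter of meninges and liver. It was at 77.9 and 67.5 FPKM and at 32.1 and 26.7 FPKM (log2 difference -1.28, standard error 0.173). Slc6a12 encodes the betaine and GABA transporter BGT1, and its gene lies next to Slc6a13. It was at 21.8 and 16.4 FPKM and at 8.76 and 3.76 FPKM (log2 difference -1.55, standard error 0.362, and -1.03 without mutant 2). Slc6a9, which encodes the glycine transporter GlyT1, was at 19.96 and 13.1 FPKM and at 8.34 and 5.56 FPKM (log2 difference -1.14, standard error 0.269). In each of these 4 both mutants were below both wild types, and the limma adjusted p-values of the 4 ran from 0.232 to 0.698.

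Carriers of sulfate, dicarboxylates and other anions came from families Slc13 and Slc26. Slc13a3, the sodium-dicarboxylate cotransporter NaDC3, was at 40.7 and 33.8 FPKM in the wild types and at 12.9 and 8.11 FPKM in the mutant samples (log2 difference -1.76, 95% interval -2.37 to -1.15). Slc13a4, a sodium-sulfate cotransporter, was at 64.1 and 57.8 FPKM and at 28.2 and 14.01 FPKM (log2 difference -1.56, 95% interval -2.38 to -0.74). These were the only 2 members of family Slc13, and their summed group means were 98.2 and 31.6 FPKM. Slc26a7, an anion exchanger and chloride channel, was at 17.6 and 9.12 FPKM and at 4.46 and 2.84 FPKM (log2 difference -1.59). Slc26a2, the sulfate transporter whose loss causes skeletal dysplasia, was at 16.6 and 8.74 FPKM and at 5.28 and 3.21 FPKM (log2 difference -1.35). In both Slc26 genes wild type 1 stood well above wild type 2, and the mutants were still below wild type 2.

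For 10 of the 20 genes the RefSeq promoter table (GRCm38.p6) gave a start within 10 bases of the gene's 5′ end in the authors' deposited table, and the 150 bases upstream of 5 of them are shown, since these are the start sites behind the genes with the largest differences and the highest levels. Capitals mark letters of 5 short motifs searched on both strands: the TATA box (TATAAA), the CCAAT box (CCAAT), the GC box (GGGCGG), a nuclear receptor half-site (AGGTCA) and a forkhead core (GTAAACA). The windows are Slc22a6 at chr19:8617846-8617995 on the plus strand, Slc6a20a at chr9:123678833-123678982 on the minus strand, Slc13a3 at chr2:165473198-165473347 on the minus strand, Slc13a4 at chr6:35308127-35308276 on the minus strand and Slc6a13 at chr6:121300138-121300287 on the plus strand. Each is written 5′ to 3′ on the strand of its gene.
Slc22a6: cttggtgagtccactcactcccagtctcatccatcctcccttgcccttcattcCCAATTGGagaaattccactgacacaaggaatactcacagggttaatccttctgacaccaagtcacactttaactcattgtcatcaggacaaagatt
Slc6a20a: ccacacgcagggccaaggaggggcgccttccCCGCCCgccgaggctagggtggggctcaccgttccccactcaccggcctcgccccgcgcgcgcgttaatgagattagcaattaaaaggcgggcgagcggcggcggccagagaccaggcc
Slc13a3: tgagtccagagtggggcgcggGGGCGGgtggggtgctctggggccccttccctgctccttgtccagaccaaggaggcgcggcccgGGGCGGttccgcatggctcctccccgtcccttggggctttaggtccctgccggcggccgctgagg
Slc13a4: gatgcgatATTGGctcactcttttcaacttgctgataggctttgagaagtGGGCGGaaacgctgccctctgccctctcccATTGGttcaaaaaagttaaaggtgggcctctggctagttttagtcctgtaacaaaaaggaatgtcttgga
Slc6a13: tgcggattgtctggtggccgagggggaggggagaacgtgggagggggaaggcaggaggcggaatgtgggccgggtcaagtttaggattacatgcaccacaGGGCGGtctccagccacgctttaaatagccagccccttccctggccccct

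The windows differed in make-up. The one of Slc22a6 held CCAAT letters on both strands that overlap each other and no GC box, while those of Slc6a20a, Slc13a3 and Slc6a13 held GC boxes and Slc13a4 held both kinds. Over windows of 250 bases, the GC content was 48.4% at Slc22a6, 50.4% at Slc13a4, 60.8% at Slc6a13, 61.2% at Slc6a20a and 67.6% at Slc13a3. A GC box was present in 7 of the 14 genes of the authors' table with a matched promoter (50%), in 64.4% of the 188 members matched, in 58.4% of 10602 genes tested and in 33% of all 27024 promoters. The CCAAT box was present in 28.6%, 33%, 36% and 34.5% of the same sets, and the TATA box in 7.14%, 5.85%, 6.58% and 13%. The half-site was found in 0 of those 14, in 9.57% of the members, in 10.6% of the genes tested and in 13.8% of all promoters. The forkhead core was found in 0 of the 14 and in 0.532%, 2.03% and 3.06% of the other sets. A match describes letters in a window and not a site in use. None of the 5 motifs was present in all 14 promoters.

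Monocarboxylate carriers of family Slc16 move lactate, pyruvate, ketone bodies and related compounds. Slc16a11 was at 17.5 and 11.8 FPKM in the wild types and at 7.17 and 3.15 FPKM in the mutant samples (log2 difference -1.40, and -0.91 without mutant 2), and Slc16a12, known as a creatine transporter, was at 7.001 and 6.70 FPKM and at 2.79 and 1.91 FPKM (log2 difference -1.24). Outside the table, 2 relatives were lower in both mutants as well. Slc16a6, a ketone body transporter, was at 7.14 and 5.31 FPKM and at 3.61 and 3.49 FPKM (log2 difference -0.65), and Slc16a13 was at 5.31 and 3.08 FPKM and at 2.24 and 1.69 FPKM (log2 difference -0.78, and -0.47 with an unadjusted limma p of 0.117 without wild type 1). The main lactate carrier Slc16a1 (MCT1) did not share this order. It was at 35.2 and 27.8 FPKM and at 33.2 and 22.4 FPKM, so that the groups overlapped, and the 95% interval of its log2 difference was -0.79 to 0.41. It was named after its values were seen.

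Acid-base carriers of the table were Slc4a10, Slc9a2 and Slc9b2. Slc4a10, a sodium-driven bicarbonate transporter of neurons and choroid plexus, was at 34.7 and 17.9 FPKM in the wild types and at 13.4 and 6.16 FPKM in the mutant samples (log2 difference -1.35, 95% interval -2.45 to -0.26, and -0.85 without mutant 2 or -0.89 without wild type 1). Slc9a2, the epithelial sodium/proton exchanger NHE2, was at 13.7 and 8.28 FPKM and at 3.71 and 2.63 FPKM (log2 difference -1.50). Slc9b2, a sodium/proton antiporter, was low, at 4.83 and 2.36 FPKM and at 0.809 and 1.22 FPKM (log2 difference -1.15, and -0.75 without wild type 1). Their relative Slc4a4, the sodium-bicarbonate cotransporter of glia, was at 9.51 and 8.07 FPKM and at 5.90 and 5.64 FPKM (log2 difference -0.53).

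The remaining genes of the table were Slc38a3, Slc30a10 and Slc35g1. Slc38a3 encodes SNAT3, a glutamine transporter of astrocytes, liver and barrier endothelium, and had replicates that lay close together in both groups. It was at 13.5 and 12.5 FPKM in the wild types and at 3.76 and 3.99 FPKM in the mutant samples (log2 difference -1.52, standard error 0.141, 95% interval -1.87 to -1.17, limma adjusted p = 0.175). Slc30a10, an exporter of manganese, was at 2.196 and 1.63 FPKM and at 0.470 and 0.492 FPKM, the lowest levels of the 20. At so low a level the constant added before the logarithm sets the size, and the log2 difference was -0.97 with 1 FPKM added and -1.78 with 0.1 FPKM. Slc35g1 was at 16.3 and 11 FPKM and at 8.79 and 3.64 FPKM (log2 difference -1.10), with mutants that differed from each other by more than mutant 1 differed from wild type 2. Without mutant 2 its log2 difference was -0.56.

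Below the size limit of the authors' table, several members had the same order of samples. Slc38a2, the amino acid transporter SNAT2, was the most abundant of them, at 168 and 145 FPKM in the wild types and at 104 and 60.5 FPKM in the mutant samples (log2 difference -0.97, 95% interval -1.68 to -0.26, and -0.58 without mutant 2). Slc23a2, the ascorbate transporter SVCT2, was at 26.5 and 20.8 FPKM and at 15.9 and 8.34 FPKM (log2 difference -0.96, and -0.53 without mutant 2). Slc41a1, a magnesium transporter, was at 33.1 and 25.3 FPKM and at 16.7 and 14.1 FPKM (log2 difference -0.87). In all 3, both mutants were below both wild types, and the limma adjusted p-values were 0.899, 0.994 and 0.602. Slc38a5, the glutamine transporter SNAT5, was at 10.2 and 6.04 FPKM and at 4.68 and 3.67 FPKM. Slc19a1, the reduced folate carrier, was at 22.8 and 20.7 FPKM and at 14.6 and 12.4 FPKM, and Slc36a4, an amino acid transporter, was at 7.62 and 7.37 FPKM and at 5.76 and 4.84 FPKM. Their log2 differences were -0.79 (-0.45 without wild type 1), -0.65 and -0.44.

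By family number, the counts of lower members differed widely, and no difference between families was tested. In Slc6, 6 of 11 members had both mutants below both wild types and 0 had both above. The counts were 2 and 0 of 2 in Slc13, 6 and 0 of 9 in Slc38, 5 and 1 of 11 in Slc22, 5 and 1 of 11 in Slc16, and 3 and 1 of 5 in Slc26. The cation-chloride cotransporters of Slc12 had 3 and 0 of 5, and the folate and thiamine carriers of Slc19 had 2 and 0 of 3. The share over all genes tested was 19.6% below and 12.5% above. The mitochondrial carriers of Slc25, the largest family, had 10 of 40 below and 9 above, a median log2 difference of 0.03, and 0 members at an unadjusted limma p below 0.05. The nucleotide-sugar carriers of Slc35 had 8 of 25 below and 6 above, with a median of -0.04. The zinc families stood at 3 of 10 below in Slc39 (uptake) and 1 of 7 below in Slc30 (efflux), with 0 above in either. The 1 in Slc30 was the manganese exporter Slc30a10, which met the limit through the wild type only. In Slc1, Slc27, Slc29 and Slc37, each with 4 members, 0 members had both mutants below both wild types. The choline-like carriers of Slc44 had 2 of 2 above, with Slc44a1 at 51.8 and 55.1 FPKM in the wild types and at 57.6 and 69.6 FPKM in the mutants.

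**Figure D3:**
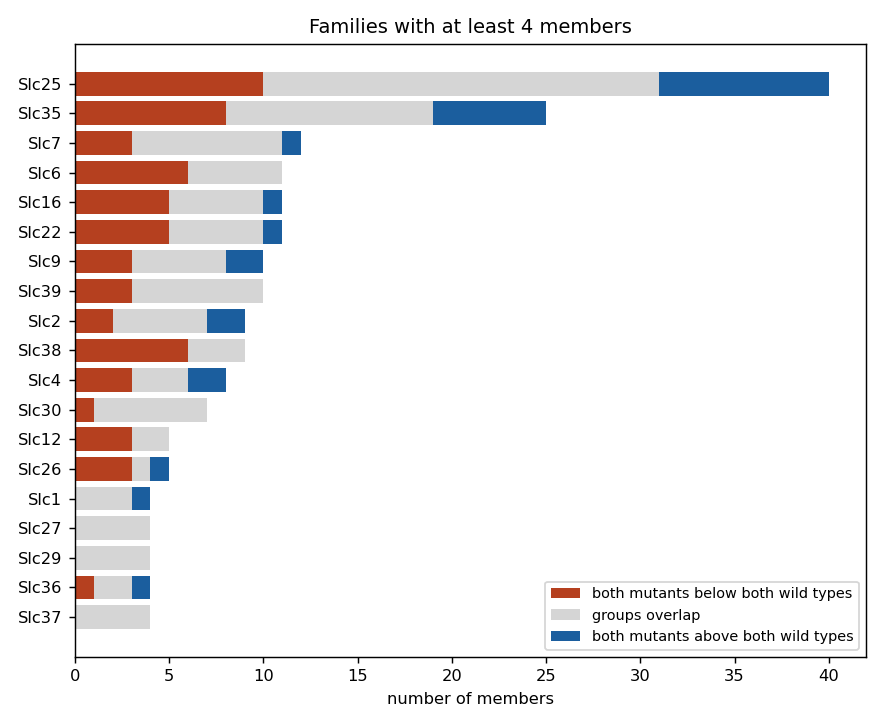
Number of members per Slc family for the 19 families with at least 4 members, split by whether both mutants lay below both wild types (red), both lay above (blue) or the groups overlapped (grey). Slc6 and Slc38 have 6 red members each and no blue one, while Slc25 has 10 red and 9 blue among 40.

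The members were also grouped by where each is known to be expressed. Some genes are on more than 1 list: Slc5a6, Slc40a1, Slc2a4, Slc27a1 and Slc36a2. The lists were chosen with earlier results of these data known. Their counts and medians are therefore descriptions and no independent support. The barrier list held transporters known from meningeal cells, perivascular fibroblasts, perineurium and barrier endothelium. Of its 33 genes 31 were members, with 19 below both wild types and 1 above, against 19.6% and 12.5% of all genes. Their median log2 difference was -0.79, and -0.45 without wild type 1, against -0.04 over the 215 members outside the list. At an unadjusted limma p below 0.05, 15 were lower and 0 higher, against 3.01% and 1.35% of all genes. The summed level of the 31 genes was 805 and 673 FPKM in the wild types and 483 and 376 FPKM in the mutants, so that the samples did not overlap. The list held 13 of the 20 genes of the authors' table and 15 of the 33 members lower at an unadjusted p below 0.05.

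Within the barrier list, 3 carriers known from barrier endothelium were not lower in both mutants. Slc2a1, the glucose transporter GLUT1 of barrier endothelium and perineurium, was at 39.3 and 37.1 FPKM in the wild types and at 47.97 and 41.5 FPKM in the mutants, the only gene of the list above both wild types. Slc3a2, the heavy chain of amino acid exchangers, was at 64.6 and 83.2 FPKM and at 64.9 and 77.9 FPKM, and its partner Slc7a5 (LAT1) was at 13.9 and 15.7 FPKM and at 15.3 and 20.2 FPKM. The 95% interval of the log2 difference was -0.17 to 0.61 for Slc2a1, -0.54 to 0.45 for Slc3a2 and -0.23 to 0.70 for Slc7a5. Slc2a1 and Slc7a5 were named after their values were seen.

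Some markers of meninges and fibroblasts moved with the barrier members. Of 13 such markers, 7 were below both wild types in both mutants (Ptgds, Igf2, Aldh1a2, Crabp2, Foxc1, Dpp4 and Cldn11) and 0 were above. The shares over all genes tested were 19.6% below and 12.5% above. The median log2 difference of the 13 was -0.92. The summed level of the 13 was 18089 to 19382 FPKM in the wild types and 6158 to 9180 FPKM in the mutants, and none was at 0. Ptgds alone stood at 13098.5 and 13054.9 FPKM in the wild types and at 3200.7 and 3025.0 FPKM in the mutants. The difference in the sum therefore rests largely on this 1 gene and does not describe the whole set. The groups overlapped in the other 6, which were the general fibroblast genes Dcn, Lum, Col1a1, Col1a2 and Pdgfra and the factor Foxd1. The barrier members and these markers also had the same order of samples by median deviation, wild type 1, wild type 2, mutant 1 and mutant 2 from the highest to the lowest. For endothelium, 1 of 8 markers was lower (Cdh5) and 0 were higher, beside the same shares over all genes. Their median was -0.08, with summed levels of 141 to 159 FPKM in the wild types and 132 to 137 FPKM in the mutants. The part of these cells in the Slc differences was not tested.

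**Figure D4:**
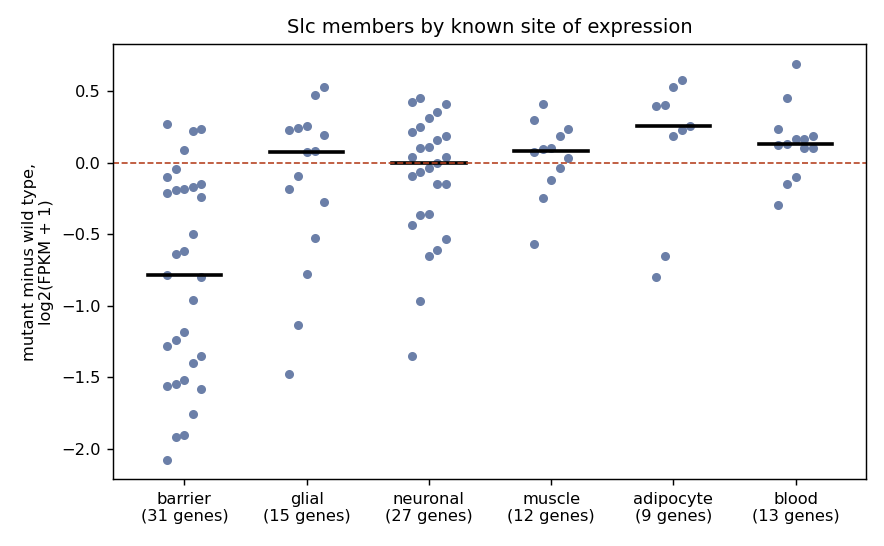
Mutant minus wild type difference on the log2(FPKM + 1) scale for each Slc gene of 6 lists, with the list median as a black bar and the median of all genes as a dashed line. The barrier median is -0.79, while the other 5 medians lie between 0.00 and 0.26.

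Of the 18 genes of the glial list 15 were members, and their median log2 difference was 0.08. In 4 of the 15 both mutants were below both wild types and in 4 both were above, against 19.6% and 12.5% of all genes tested. At an unadjusted limma p below 0.05, 3 were lower and 1 was higher, against 3.01% and 1.35% of all genes. The lower ones included Slc6a9 and Slc4a4, given above. Slc15a2, the peptide transporter PEPT2 of satellite glia and astrocytes, had the opposite order, at 9.43 and 8.36 FPKM in the wild types and at 12.02 and 13.4 FPKM in the mutant samples (log2 difference 0.47, 95% interval 0.09 to 0.85, limma adjusted p = 0.994). Slc1a3, the glutamate transporter GLAST of satellite glia, overlapped at 14.4 and 10.8 FPKM and at 10.5 and 11.2 FPKM (log2 difference -0.18, 95% interval -0.64 to 0.28). It was named after its values were seen. Among 7 satellite glia markers, 0 were lower and 3 were higher in both mutants, with a summed level of 4895 to 5924 FPKM in the wild types and 5073 to 5327 FPKM in the mutants. Among 9 Schwann cell and myelin markers, 0 were lower and 4 higher, with sums of 8115 to 10159 FPKM and 10015 to 20951 FPKM, and mutant 2 stood apart. None of these markers was at 0, and their part in the glial members was not tested.

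Neuronal transporters lay on both sides of 0. Of 45 genes on the list 27 were members, and the median log2 difference was 0.00. In 9 of the 27 both mutants were below both wild types and in 6 above, where the shares over all genes tested were 19.6% and 12.5%. Slc17a6, the vesicular glutamate transporter VGLUT2 of most sensory neurons, was at 17.2 and 22.6 FPKM in the wild types and at 19.6 and 21.0 FPKM in the mutants (95% interval of the log2 difference -0.41 to 0.49). Slc17a7, the vesicular transporter VGLUT1 of large sensory neurons, was at 17.5 and 18.5 FPKM and at 20.7 and 28.8 FPKM (95% interval -0.07 to 0.92). Slc12a2, the chloride importer NKCC1 of sensory neurons, was at 33.4 and 26.7 FPKM and at 24.97 and 21.2 FPKM (95% interval -0.82 to 0.09). These 3 were named after their values were seen. Slc22a17, a lipocalin receptor abundant in brain, was at 59.3 and 59.0 FPKM and at 69.4 and 83.0 FPKM, and the aspartate/glutamate carrier Slc25a12 was at 42.3 and 50.01 FPKM and at 43.6 and 51.2 FPKM.

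Of the 9 lower neuronal members, 4 had an unadjusted limma p below 0.05, a limit at which 3.01% of all genes tested were lower. The 4 were Slc4a10 and Slc38a2, given above, and a pair of smaller size. Slc24a3, a potassium-dependent sodium/calcium exchanger, was at 21.7 and 17.9 FPKM in the wild types and at 13.4 and 11.05 FPKM in the mutant samples (log2 difference -0.65). Slc7a14, a lysosomal carrier of neurons, was at 10.8 and 9.45 FPKM and at 6.32 and 6.23 FPKM (log2 difference -0.61, limma adjusted p = 0.703). Beside them, 0 of 10 sensory neuron markers were lower in both mutants and 1 was higher (Tubb3), against 19.6% and 12.5% of all genes. The summed level of these markers was 5022 to 6621 FPKM in the wild types and 5453 to 8037 FPKM in the mutants. The 4 members were picked for an unadjusted limma p below 0.05 and groups that did not overlap, so neither trait is a further finding. The part of neuron content in their values was not tested.

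The muscle, adipocyte and blood lists had medians of 0.08, 0.26 and 0.13, and single samples set many of their values. Of 12 muscle members, 1 was below and 3 were above in both mutants, where the shares over all genes tested were 19.6% and 12.5%. Slc2a4, the insulin-regulated glucose transporter GLUT4 of muscle and fat, was at 5.29 and 6.50 FPKM in the wild types and at 3.55 and 12.5 FPKM in the mutants, so that the mutants enclosed both wild types. Skeletal muscle markers had the same order of samples, with sums as given above. Of 9 adipocyte members, 2 were below and 2 were above, beside the same shares over all genes. Slc36a2, an amino acid transporter that marks brown fat, is on both the adipocyte and the glial list. It was at 29.3 and 26.8 FPKM and at 29.1 and 57.3 FPKM, high in mutant 2 alone. Summed Schwann cell and myelin markers were at 10159 and 8115 FPKM and at 10015 and 20951 FPKM, also highest in mutant 2. Slc7a10, an amino acid transporter of white fat named after its values were seen, was at 0.508 and 0.648 FPKM and at 0.683 and 2.28 FPKM. The summed level of 6 adipocyte markers was 483 and 760 FPKM in the wild types and 276 and 2333 FPKM in the mutants, again highest in mutant 2. The part of muscle, fat and Schwann cell RNA in these members was not tested.

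Of 13 blood members, 1 was below and 3 were above in both mutants, where the shares over all genes tested were 19.6% and 12.5%. Slc4a1 encodes band 3, the chloride/bicarbonate exchanger of the red cell membrane, and had the largest positive log2 difference of the 246 members. It was at 8.61 and 9.30 FPKM in the wild types and at 16.3 and 13.9 FPKM in the mutants, 1.69-fold higher (log2 difference 0.69, 95% interval 0.31 to 1.08, limma adjusted p = 0.602). Slc25a37, mitoferrin, which brings iron into mitochondria of red cell precursors, was at 10.3 and 6.89 FPKM and at 13.6 and 10.4 FPKM, a small separation. It was named after its values were seen. Of 8 erythrocyte markers on the list 6 were tested, and all 6 were above both wild types in both mutants, with summed levels of 3193 to 3401 FPKM in the wild types and 6377 to 6506 FPKM in the mutants and none at 0. The haem transporter Slc48a1 and the mitochondrial glutathione importer Slc25a39 differed less, with log2 differences of 0.17 and 0.16. The list also held macrophage genes. The summed level of 7 macrophage markers was 371 to 397 FPKM in the wild types and 329 to 446 FPKM in the mutants, and that of 6 neutrophil markers was 1448 to 2259 FPKM and 2195 to 2913 FPKM. Whether red cells in the tissue gave the Slc4a1 difference was not tested.

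**Figure D5:**
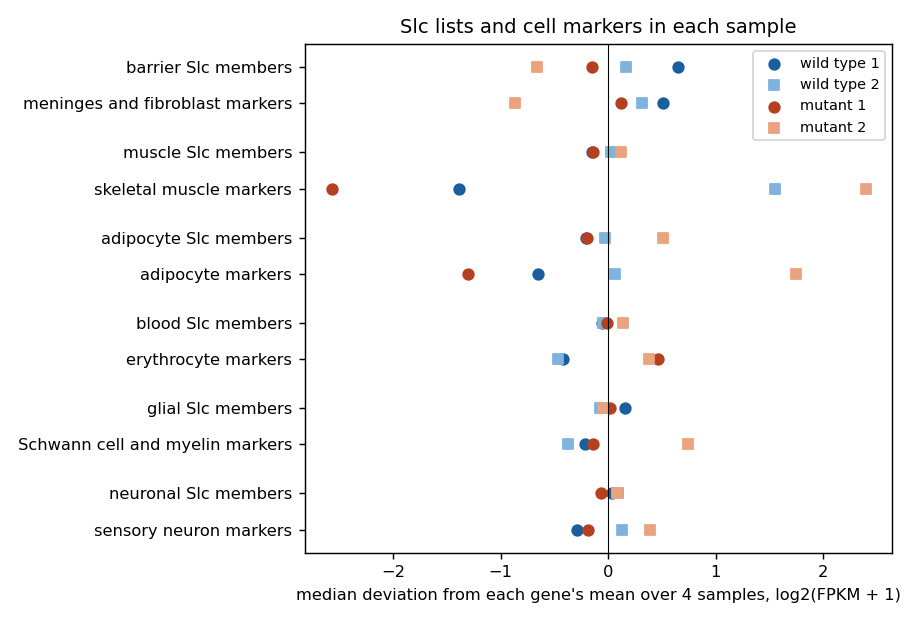
For 6 lists of Slc members and the markers of the matching cells, the median deviation of each list from its genes' means, on the log2(FPKM + 1) scale, in each sample. The barrier members run from 0.65 in wild type 1 to -0.66 in mutant 2 and the meningeal markers from 0.51 to -0.87, while muscle markers differ most between the first and second samples of each group.

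Carriers of sugars, metals and nucleosides that serve most cells included several with close values in the 2 groups, and apart from Slc50a1 and Slc39a1 those given here were named after their values were seen. Slc2a3, the neuronal glucose transporter GLUT3, was at 9.32 and 9.16 FPKM in the wild types and at 9.42 and 10.5 FPKM in the mutants. Slc50a1, the sugar efflux carrier SWEET1, overlapped at 79.3 and 83.4 FPKM and at 83.9 and 73.3 FPKM. Of the 9 members of the Slc2 sugar family, 2 were below both wild types in both mutants and 2 above, against 19.6% and 12.5% of all genes. One of the lower ones was Slc2a12, GLUT12, at 5.90 and 2.43 FPKM and at 1.48 and 1.88 FPKM, where wild type 1 stood apart (95% interval of the log2 difference -1.73 to 0.00). Of the zinc carriers, Slc39a7 of the secretory pathway was at 50.8 and 50.6 FPKM and at 50.6 and 51.97 FPKM, and Slc39a1 of the plasma membrane was at 73.0 and 70.7 FPKM and at 63.0 and 58.3 FPKM. The latter was lower in both mutants by a small margin (log2 difference -0.24, 95% interval -0.61 to 0.13). The nucleoside carrier Slc29a1, ENT1, was at 60.0 and 62.1 FPKM and at 64.5 and 61.1 FPKM, and the iron exporter Slc40a1, ferroportin, was at 2.55 and 2.84 FPKM and at 2.96 and 1.80 FPKM.

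Several members lie side by side in the genome, and 23 pairs of members were within 100 kb of each other by annotated positions on mm10. Slc22a8 (chr19, 8591254 to 8611835) and Slc22a6 (8617996 to 8628299) are 6161 bases apart and had log2 differences of -1.90 and -1.92. The next Slc gene on that side, Slc3a2, differed by -0.04. Slc6a13 and Slc6a12 on chromosome 6 are 4853 bases apart, with differences of -1.28 and -1.55. Slc38a1 and Slc38a2 on chromosome 15 are 43954 bases apart, with -0.54 and -0.97. Neighbours did not always share a value. Slc13a3 on chromosome 2 differed by -1.76 and Slc2a10, 30700 bases away, by -0.17. Slc47a1 and Slc47a2 on chromosome 11 are 540 bases apart and differed by -1.18 and -0.25. Slc16a11 and Slc16a13, 375 bases apart on the same chromosome, differed by -1.40 and -0.78. No source used here states the strandedness of the libraries, so reads at the ends of genes this close cannot be assigned to either with certainty. The same holds for Slc36a1os and Slc7a6os, transcripts named for the opposite strand of a carrier gene.

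Not each Slc symbol names a carrier. Slc9a3r1, Slc9a3r2, Slc4a1ap, Slc7a6os and Slc2a4rg-ps encode adaptor or other proteins or no protein. Of these 5 members 0 were lower and 1 was higher in both mutants, against 19.6% and 12.5% of all genes. Slc36a1os, the opposite-strand transcript given above, was not among the 5, and its groups overlapped. The counts by family number include all these symbols. Carriers of the superfamily under other symbols were counted from a separate list of 30 genes, among them the organic anion transporters Slco, the uncoupling proteins, the mitochondrial pyruvate carriers and the monocarboxylate partner Bsg. Of 22 tested, 4 were below both wild types and 5 above, against 19.6% and 12.5% of all genes. At an unadjusted limma p below 0.05 there were 0, and the median log2 difference was 0.05. Slco1a4, an organic anion carrier of barrier endothelium, was at 6.84 and 6.16 FPKM in the wild types and at 5.77 and 5.18 FPKM in the mutants. Bsg, the most abundant of them, overlapped at 446 and 519 FPKM and at 400.3 and 586 FPKM.

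Replicates of 1 group were far apart in a few members of at least 5 FPKM. Slc2a4 had the widest gap, 1.57 on the log2(FPKM + 1) scale between the mutants, then Slc47a1 with 1.24, Slc35g1 with 1.08, Slc6a12 with 1.03 and Slc52a3 with 1.01. Slc52a3, a riboflavin transporter, was at 6.67 and 4.40 FPKM in the wild types and at 6.47 and 2.70 FPKM in the mutants, lower in the second sample of each group. Across the members the median gap between replicates was 0.21 in the wild type and 0.25 in the mutant, and over all genes it was 0.18 and 0.23.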

How the data were processed

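RNA of mouse dorsal root ganglia was measured by sequencing in 2 wild type and 2 mutant samples, grouped by title. The submitters' processing notes name Cufflinks 2.2.1, TopHat2 2.1.2 and CASAVA with mm10; no source used here gives their roles, the strandedness or the scaling. The authors deposited an FPKM matrix, and a list of 150 genes with group FPKM, a log2 fold change, a test score, a p-value and a q-value, in Cuffdiff columns per the file headers. FPKM are not counts, so limma 3.58.1 (R 4.3.3) was run on log2(FPKM + 1) with a variance prior following mean expression, over 14040 genes with a group mean of at least 1 FPKM, with Benjamini-Hochberg adjustment at 0.05. The scale understates changes of low genes. The fit had 2 residual and 3.44 prior degrees of freedom; an exact permutation test of 2 against 2 cannot go below 0.333. The script was tested on simulated data.

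The members, the lists and the tests were chosen with earlier results of these data known. Named genes are those of the authors' list, those of at least 5 FPKM with no overlap and an unadjusted p below 0.05, the 10 highest, the 3 highest of each list, those nearest the threshold, neighbours within 100 kb and the 5 with the widest replicate gap; others are said to be named afterwards. Some members are counted and not reported singly here. Alternatives were another added constant, no or a stricter filter, 2 rescalings, no variance trend, a replicate block and each sample left out. Positions are annotated gene positions on GRCm38, and promoters are from RefSeq.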

Additional observations from a re-analysis of the deposited data

How the results depend on the processing

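With the replicate number as a block, 13 members passed an adjusted p of 0.05 (61 over all genes), among them Slc13a3, Slc16a11, Slc22a6, Slc22a8, Slc26a2, Slc26a7, Slc38a3, Slc4a10, Slc6a13, Slc6a20a, Slc6a9 and Slc9a2. At an unadjusted limma p below 0.05, 11 members were then higher and 46 lower. Over all 14040 genes, 1474 passed that limit in either direction. The labels do not pair the samples; deviations of same-numbered samples correlated across genes (r = 0.481 over 14040 genes). Under all other alternatives 0 members passed. The authors'-table genes kept a negative sign in every alternative, from -2.40 to -0.56, while 16 of the 60 named genes changed sign in some alternative. With each sample left out in turn, unadjusted counts ran from 21 to 44 lower and from 1 to 17 higher, and non-overlapping counts (alternatives chosen after seeing the data, fewer samples by construction) from 99 to 117 lower and from 58 to 89 higher. The medians ran from -0.084 to -0.044 for all members, -1.13 to -0.45 for barrier, -0.12 to 0.16 for glial, -0.10 to 0.085 for neuronal, -0.10 to 0.24 for muscle, 0.052 to 0.71 for adipocyte and 0.076 to 0.23 for blood transporters. The median of all members was -0.042 with a 5 FPKM filter and -0.037 with quantile normalization. Quantile normalization gave -0.060 for Slc25a3 and -0.020 for Slc25a4. Signs changed with samples left out in Slc22a15 (-0.16 to 0.030), Slc25a1 (-0.10 to 0.55), Slc25a12 (-0.081 to 0.15), Slc25a20 (-0.22 to 0.43), Slc25a38 (-0.025 to 0.40), Slc25a4 (-0.093 to 0.28), Slc2a10 (-0.59 to 0.26), Slc2a4 (-0.60 to 0.97), Slc36a1os (-0.038 to 0.41), Slc3a2 (-0.22 to 0.14), Slc47a2 (-0.49 to 0.00053), Slc50a1 (-0.15 to 0.044), Slc52a3 (-0.80 to 0.22), Slc8a3 (-0.16 to 0.082) and Slc9a3 (-0.21 to 0.46); the cause was not tested. With 1 sample left in a group, its spread is assumed to equal that of the other. Depth is unknown, and 2 samples a group limit every comparison.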
